A study of Mus musculus with 24 samples.

Results

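The genes described here build, fold, check and export proteins at the endoplasmic reticulum (ER). They were chosen by name as a module of 41 genes, in 6 roles: 11 chaperones and co-chaperones, 6 disulfide isomerases and oxidase, 4 transcription factors of the unfolded protein response, 10 translocon and signal peptidase genes, 7 genes of ER-associated degradation and 3 KDEL receptors. Of the 41, 40 had a probe set of their own among the 12394 genes measured, and no filter on low values was applied. The remaining gene, Sec61g, shares its probe set with other symbols and has no value here. The question was how these genes stand in mouse thyroid tumours that keep or lose thyroglobulin (Tg), the main secreted product of the gland.

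Thyroid follicular cells make very large amounts of Tg, a big disulfide-rich glycoprotein that passes through the ER before it is stored in the follicle. The nascent chain enters through the Sec61 translocon, loses its signal peptide, is held by chaperones such as Hspa5 (BiP) and calnexin, receives its disulfide bonds from isomerases, and is either exported or sent back to the cytosol for degradation. The unfolded protein response adjusts this machinery: the sensors act through Xbp1, Atf6 and Atf4, which switch on chaperone and degradation genes.

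Expression was measured on Affymetrix Mouse430A_2 arrays with 24 RNA samples: 4 papillary thyroid cancers (PTC, a differentiated tumour), 5 anaplastic thyroid cancers (ATC, an undifferentiated tumour), 9 recurrent tumours and 6 pools of normal thyroid glands. The labels give the tissue of each sample and state no genotype, agent, age or time. All samples are thyroid RNA, and titles carry WT (4 normal pools), Cre (2 normal pools), a JK number (13 arrays, the WT pools among them) or a bare number (9 arrays, all ATC or recurrent). They do not say whether tumours came from separate animals, so p-values measure only the spread between these samples, which may be technical. Normal samples are pools, so their spread is not that of single glands. Values are log2 levels, on which a difference of 1 is 2-fold, and a gene was called when limma's Benjamini-Hochberg adjusted p over all genes was under 0.05.

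The median level of an array was 7.38 at the lowest and 7.58 at the highest. Precision depends on how few arrays a group has and on the spread that limma shares over all groups. Braf, a growth-signalling kinase and oncogene, had a level of 7.58 to 7.95 in PTC, 10.29 to 11.98 in ATC and 5.62 to 11.14 in recurrent tumours, against 5.95 to 6.67 in normal pools. The array labelled recurrent 2 gave the 11.14, inside the ATC range, and the other 8 recurrent arrays lay at or under 7.14. Gapdh probe sets at the 3' end read higher than those at the 5' end, a gap that widens as RNA breaks, by 1.11 to 1.60 in PTC, 0.82 to 0.96 on JK and 0.06 to 0.15 on bare-number ATC arrays, and 0.36 to 1.07 on JK and by -0.02 to 0.17 on bare-number recurrent arrays. In normal pools the gap was 0.64 to 0.98. Its part in the results below was not tested.

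The promoters of many members carry the ER stress response element, the sequence to which Atf6 with NF-Y and also Xbp1 are known to bind. Its letters are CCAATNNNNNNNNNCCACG, searched on both strands from 250 bases before to 50 bases after the start in RefSeq promoters of the mouse assembly GRCm38.p6. Promoters were in the table for 33 of the 41 members. The element stood in 10 of these 33 genes (30.3%), against 39 of 32851 promoters in the table (0.119%). The first share counts genes and the second counts promoters, those of the members included. Known targets of the element, such as Hspa5 and Calr, are members, so the first share is a description and not a test. Of the sites, 7 are printed 5′ to 3′ along the strand of the gene, with the element in capitals. They were chosen to span members that stood far below normal (Ero1b, Derl3, Creld2, Dnajc3), the best known targets (Hspa5, Calr) and one that was not called (Syvn1).
Hspa5 (chr2:34772005-34772063, plus strand): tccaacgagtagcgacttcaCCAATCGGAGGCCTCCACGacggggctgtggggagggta
Calr (chr8:84847055-84847113, minus strand): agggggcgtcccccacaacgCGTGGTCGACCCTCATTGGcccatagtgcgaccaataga
Dnajc3 (chr14:118937807-118937865, plus strand): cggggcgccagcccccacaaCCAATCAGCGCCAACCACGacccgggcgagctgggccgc
Creld2 (chr15:88819500-88819558, plus strand): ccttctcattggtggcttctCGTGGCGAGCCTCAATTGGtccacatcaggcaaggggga
Ero1b (chr13:12565662-12565720, plus strand): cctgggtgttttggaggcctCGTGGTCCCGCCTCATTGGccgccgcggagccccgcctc
Derl3 (chr10:75893222-75893280, plus strand): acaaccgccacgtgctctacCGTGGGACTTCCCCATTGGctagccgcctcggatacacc
Syvn1 (chr19:6046512-6046570, plus strand): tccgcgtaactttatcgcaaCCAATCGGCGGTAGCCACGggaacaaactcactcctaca

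In Calr, Creld2, Ero1b and Derl3 the element lies on the opposite strand, so its letters appear as the reverse complement. The Hspa5 element begins 65 bases before the start of the gene and the Syvn1 element 44 bases before it. The related element ATTGGNCCACG stood in 2 of the 33 genes, Herpud1 and Dnajb11, against 0.0365% of all promoters. It is shown for Herpud1, a gene of ER-associated degradation that fell in ATC and recurrent tumours.
Herpud1 (chr8:94386357-94386407, plus strand): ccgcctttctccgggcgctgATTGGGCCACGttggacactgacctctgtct

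A match is a description of these letters and not a bound site. TGACGTGG, an Xbp1 and Atf6 motif, was in 1 of the 33 genes (Kdelr3) and in 0.676% of all promoters. TGATGCAA, the core of an Atf4 motif, was in 1 (Herpud1) and in 0.895% of all promoters. Both were searched on both strands.

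Tg itself set the frame. Its level was 13.49, 14.24, 13.46 and 13.11 on the 4 PTC arrays and 5.98, 5.29, 4.46, 13.48 and 5.51 on the 5 ATC arrays. Recurrent arrays ran from 4.61 to 14.18 with a median of 5.11, against 14.80 to 14.96 with a median of 14.88 in normal pools. All PTC arrays lay below all normal pools but near them, and most ATC and recurrent arrays lay far below. ATC array 4 (13.48), recurrent array 4 (14.18) and recurrent array 1 (11.31) kept much of the Tg signal. Kept refers here to the signal of the sample. Whether it came from tumour cells or from normal gland in the sample was not tested. The difference was -7.94 in ATC (adjusted p = 0.000491) and -8.17 in recurrent tumours (adjusted p = 9.23e-05). In PTC it was -1.31, which limma did not call with a spread shared by all groups (adjusted p = 0.725), while a two-sided exact permutation test gave p = 0.00952 and limma on PTC and normal arrays alone gave adjusted p = 0.000121. The highest value anywhere in the matrix was 14.96, so changes of Tg near the top of the scale may be compressed.

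The module stood below normal in all 3 tumour groups. In PTC, 18 of the 40 members fell and 1 rose, where limma called 8.03% of all genes lower and 6.16% higher. The median difference of the members was -0.57, and that of all genes was -0.01. In ATC, 21 members fell and 1 rose, beside 19.1% of all genes lower and 15.1% higher, with medians of -0.48 and -0.08. In recurrent tumours, 22 fell and 3 rose, beside 19.3% lower and 14.5% higher, with medians of -0.53 and -0.03. Every PTC array lay below every normal pool for 22 members and above for 2, against 19.7% and 14.6% of all genes. For ATC this held for 15 below and 2 above (19.2% and 14.9% of all genes), and for recurrent tumours for 11 below and 0 above (5.12% and 2.9%). These comparisons share the same 6 normal pools. The JK arrays are 4 normal pools, 4 PTC, 2 ATC and 3 recurrent arrays. On them alone, 20, 17 and 21 members fell in PTC, ATC and recurrent tumours, with member medians of -0.58, -0.62 and -0.61. A call lost on these few arrays cannot be told apart from a loss of precision. Called in either direction on these arrays were 21, 19 and 24 members, beside 3156, 3921 and 5150 of 12394 genes.

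**Figure D1:**
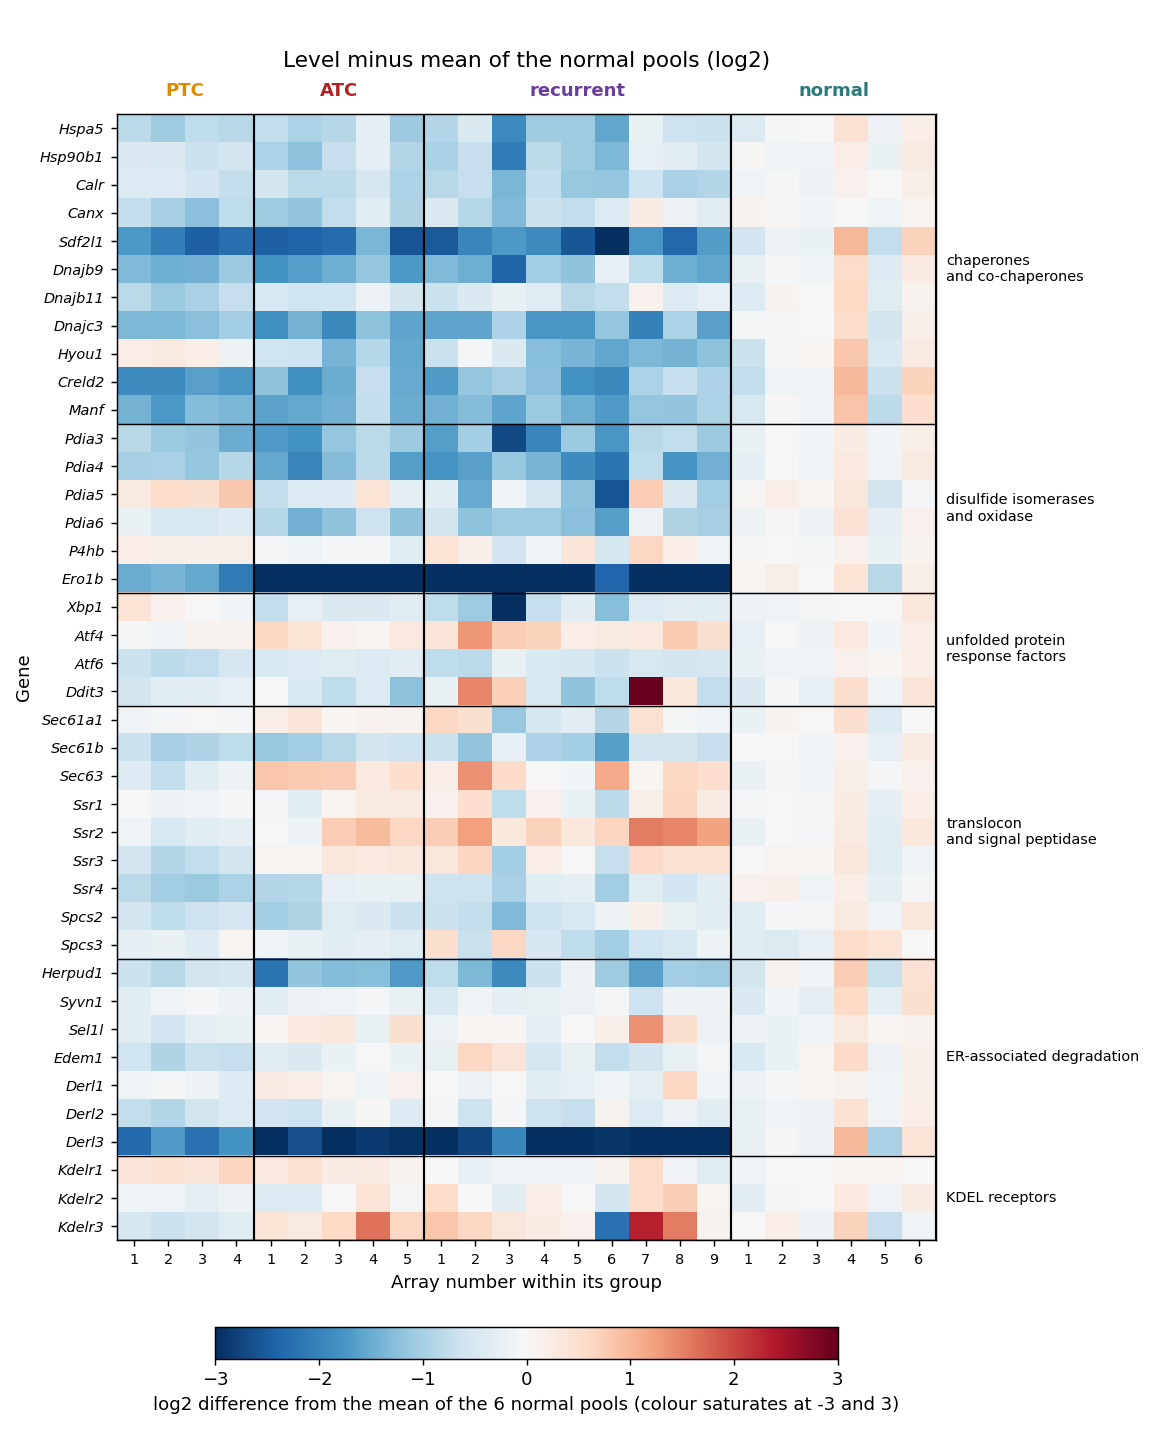
Heat map of 40 ER genes (rows, grouped by role) on 24 arrays (columns, PTC, ATC and recurrent arrays left of the normal pools), coloured by log2 level minus the mean of the 6 normal pools, saturating at -3 and 3. Blue fills most of the chaperone rows on every tumour group, Ero1b and Derl3 are deepest in ATC and recurrent arrays, and the translocon and KDEL receptor rows are mixed.

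Other cells of the gland changed with the groups. In tissue RNA, fewer cells of a type and less RNA per cell cannot be told apart. Of 12 measured thyroid follicular markers, 6, 10 and 10 fell in PTC, ATC and recurrent tumours, and 1 rose in PTC. The log2 of their summed signal was 13.89 to 14.74, 9.99 to 13.76 and 9.22 to 14.41, against 15.58 to 15.83 in normal pools. Of 13 macrophage markers, 1, 12 and 6 rose, and their summed level was 13.83 to 15.03, 14.89 to 15.78 and 11.96 to 15.64, against 12.56 to 14.75 in normal pools. Of 12 fibroblast markers, 2, 7 and 8 rose, with summed levels of 14.97 to 16.12, 16.02 to 16.85 and 14.58 to 17.22, against 14.75 to 15.28. Hormone-secreting neighbours were lower: 4 of 5 C-cell markers fell in each tumour group and 1 rose in ATC, and their summed level was 7.39 to 9.08, 8.92 to 12.22 and 7.15 to 13.96, against 13.86 to 14.88. Of 3 parathyroid markers, 1, 3 and 3 fell, with summed levels of 7.15 to 11.02, 6.75 to 14.50 and 6.50 to 15.39, against 14.86 to 15.48. Of 7 adipocyte markers, 3, 5 and 6 fell, with summed levels of 12.52 to 12.96, 11.54 to 12.97 and 10.85 to 14.49, against 13.51 to 15.29. Of 10 plasma and B cell markers, another secretory lineage, 0, 1 and 1 fell and 0 rose, and their summed level was 9.39 to 11.10, 8.84 to 13.94 and 8.99 to 11.34, against 9.51 to 11.36. Of 8 proliferation genes, 5, 8 and 8 rose, with summed levels of 10.47 to 11.46, 11.85 to 12.69 and 11.32 to 13.68, against 8.48 to 10.24. Of 9 endothelial markers, 2, 1 and 4 fell, with summed levels of 11.13 to 11.32, 11.55 to 11.94 and 10.42 to 12.25, against 11.80 to 12.31, and of 8 skeletal muscle genes none was called in any group. The part of these cell types in the ER results was not tested.

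Chaperones and co-chaperones fell most uniformly: 9 of 11 in PTC and 11 of 11 in both ATC and recurrent tumours, with none called higher. Their median differences were -0.94, -1.0 and -1.05. Hspa5, the BiP chaperone that binds nascent chains and holds the stress sensors, had levels of 12.97, 12.71, 13.01 and 12.95 in PTC and 13.05, 12.82, 12.92, 13.48 and 12.70 in ATC. In recurrent tumours the levels ran from 11.88 to 13.57 (median 12.91), against 13.38 to 14.21 (median 13.76) in normal pools. PTC lay wholly below normal, while ATC array 4 and recurrent array 7 reached into the normal range. The differences were -0.88 (SE 0.25, adjusted p = 0.021), -0.79 (SE 0.24, adjusted p = 0.012) and -0.93 (SE 0.21, adjusted p = 0.00122). The PTC call ended without PTC array 2 (adjusted p = 0.0728) or normal pool 4 (adjusted p = 0.0519), and the ATC call on JK arrays alone (-0.85, adjusted p = 0.0747).

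Sdf2l1, an ER luminal partner of the Hsp40 co-chaperones, fell the most among chaperones. Its levels were 9.17, 8.84, 8.44 and 8.64 in PTC and 8.45, 8.50, 8.60, 9.52 and 8.30 in ATC. The 9 recurrent arrays spanned 7.56 to 9.23 (median 8.95), against 10.16 to 11.89 (median 10.71) in normal pools. No tumour array reached the lowest normal pool, although the normal pools themselves spread over more than 1 log2 unit. The differences were -2.13 in PTC (SE 0.34, adjusted p = 0.000199), -2.22 in ATC (SE 0.32, adjusted p = 1.66e-05) and -2.20 in recurrent tumours (SE 0.28, adjusted p = 3.22e-06).

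Dnajc3 (p58IPK), a co-chaperone of BiP, showed the same separation. It had 10.44, 10.44, 10.52 and 10.75 in PTC and 9.95, 10.37, 9.85, 10.54 and 10.19 in ATC. Among recurrent tumours levels were 9.76 to 10.86 (median 10.19), against 11.23 to 12.31 (median 11.74) in normal pools. Every tumour array lay below every normal pool, with differences of -1.24, -1.60 and -1.48 (adjusted p = 0.000371, 3.25e-06 and 1.29e-06). Dnajb9, another BiP co-chaperone, fell in PTC, ATC and recurrent tumours, with differences of -1.33, -1.56 and -1.27, and so did Dnajb11, with -0.90, -0.48 and -0.42. The Dnajb11 calls in ATC and recurrent tumours were lost in 8 and 7 of 24 fits that left out 1 array, with the kind of title as a block (adjusted p = 0.0522 and 0.0634) and on JK arrays alone (adjusted p = 0.08 and 0.0754).

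Creld2 and Manf are small ER proteins known as products of the stress response. Creld2 had 9.54, 9.51, 9.81 and 9.68 in PTC and 10.21, 9.60, 9.94, 10.75 and 9.91 in ATC. Recurrent arrays ran from 9.49 to 10.75 (median 10.27), against 10.70 to 12.41 (median 11.30) in normal pools. PTC lay wholly below normal, and the highest ATC and recurrent arrays just reached the lowest pool. The differences were -1.80, -1.35 and -1.27 (adjusted p = 0.000323, 0.000841 and 0.000422). Manf fell in the 3 groups (-1.45, -1.36 and -1.32), and only ATC array 4, at 11.53, entered the normal range of 11.45 to 13.10.

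The lectin chaperones Calr and Canx, which hold glycoproteins such as Tg while they fold, fell less than Sdf2l1, Dnajc3, Creld2 and Manf. Calr differed by -0.52 in PTC (adjusted p = 0.0158, or 0.0721 without PTC array 4 and 0.0512 without PTC array 3), -0.72 in ATC (adjusted p = 0.000231) and -0.93 in recurrent tumours (adjusted p = 2.63e-06). Its levels were 12.88 to 13.21 in PTC, 12.65 to 13.09 in ATC and 12.23 to 12.98 in recurrent tumours, against 13.45 to 13.78 in normal pools, so no tumour array overlapped the pools. Canx differed by -0.94, -0.85 and -0.52, and its other probe sets gave 0.39 and -0.55 in recurrent tumours. With the mean of its probe sets the ATC call ended (-0.44, adjusted p = 0.181), and so did the recurrent call (-0.23, adjusted p = 0.449). The recurrent call also ended with recurrent and normal arrays fitted alone (adjusted p = 0.0525) and without normal pool 1 (adjusted p = 0.0519). Hsp90b1 (Grp94) differed by -0.53 in PTC, which was not called (adjusted p = 0.198), and fell in ATC (-0.81) and recurrent tumours (-0.91). Every PTC array lay below every pool for Hsp90b1, and limma on PTC and normal arrays alone called it (adjusted p = 0.00232).

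Hyou1, an exchange factor that resets BiP, was not called in PTC. Its levels were 10.46, 10.51, 10.44 and 10.09 in PTC and 9.65, 9.63, 8.86, 9.40 and 8.71 in ATC. In recurrent tumours the levels ran from 8.68 to 10.21 (median 8.97), against 9.61 to 11.05 (median 10.27) in normal pools. PTC arrays lay inside the normal range, and the ATC and recurrent arrays mostly below it. The differences were 0.13 in PTC (adjusted p = 0.873), -1.0 in ATC (adjusted p = 0.00739) and -1.05 in recurrent tumours (adjusted p = 0.00187). Probe sets of Hyou1 did not give the same PTC value: the 2 not used gave -0.58 and -0.66. On JK arrays alone the ATC and recurrent differences were -0.66 (adjusted p = 0.136) and -0.43 (adjusted p = 0.233), and with the kind of title as a block -0.53 (adjusted p = 0.113) and -0.52 (adjusted p = 0.102).

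Normal pools varied among themselves in this role. Pool 4 was the highest of the 6 pools for 8 of the 11 chaperones, pool 5 was the lowest for 6 and pool 1 for 4. The median of the chaperones relative to the mean of the pools ran from -0.40 to 0.54 across pools. On tumour arrays it was -1.26 to -0.83 in PTC, -1.50 to -0.68 in ATC and -1.37 to -0.77 in recurrent tumours, below every pool.

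**Figure D2:**
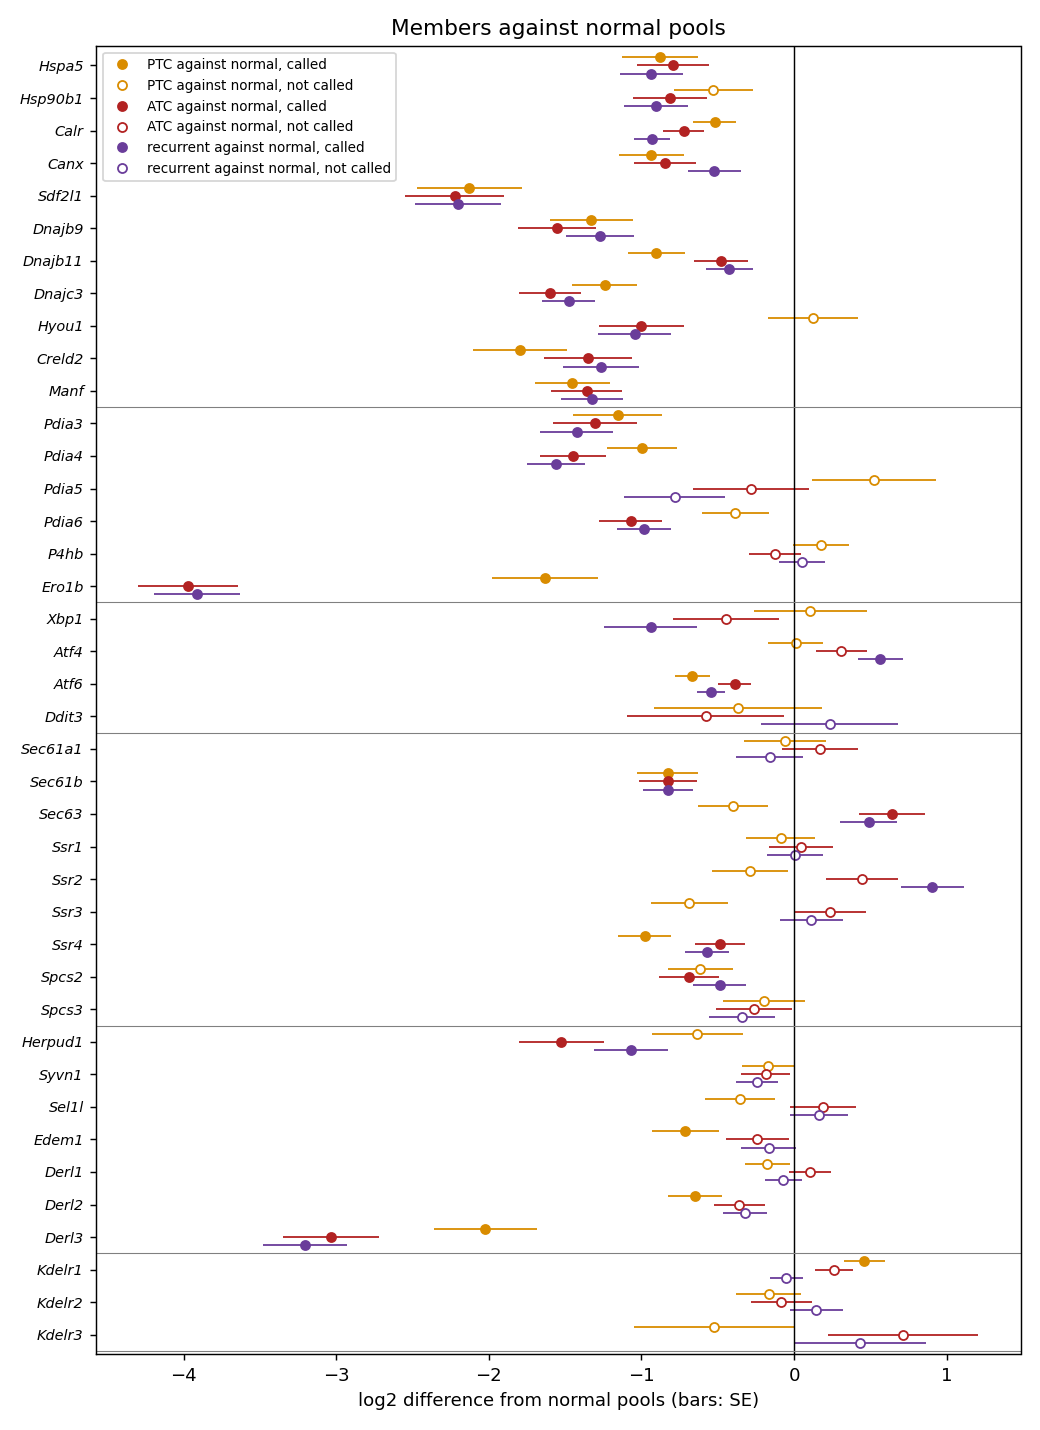
Differences of 40 ER genes between PTC, ATC or recurrent tumours and the 6 normal pools (log2, horizontal axis; bars are the SE of limma), with filled points called at an adjusted p under 0.05 and lines between the roles. Chaperones at the top lie left of 0 apart from Hyou1 in PTC, Ero1b reaches -3.97 in ATC, and KDEL receptors at the bottom lie around 0.

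Disulfide isomerases and oxidase split into genes that fell and genes that were not called: 3 of 6 fell in PTC, and 4 of 6 in ATC and in recurrent tumours. Ero1b (Ero1lb on the array), the oxidase that recharges protein disulfide isomerases, showed the largest differences of the module in ATC and recurrent tumours. It had 10.79, 10.88, 10.74 and 10.15 in PTC and 8.21, 8.60, 7.98, 8.51 and 8.22 in ATC. The 9 recurrent arrays spanned 7.22 to 9.88 (median 8.14), against 11.43 to 12.67 (median 12.40) in normal pools. PTC formed a step between normal pools and the other tumours, and neither PTC and normal nor ATC and PTC overlapped. The differences from normal were -1.63 in PTC (SE 0.35, adjusted p = 0.00248), -3.97 in ATC (SE 0.33, adjusted p = 1.06e-08) and -3.91 in recurrent tumours (SE 0.28, adjusted p = 8.43e-10). The other probe sets of Ero1b gave -2.48 and -0.83 in PTC, -4.30 and -1.29 in ATC, and -4.05 and -1.27 in recurrent tumours. ATC array 4 and recurrent array 4, which kept Tg at 13.48 and 14.18, had Ero1b at 8.51 and 8.76, within the range of their groups.

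Pdia3 (ERp57), which works with Calr and Canx on glycoproteins, fell in PTC, ATC and recurrent tumours, with differences of -1.16, -1.30 and -1.42. Pdia4 (ERp72) had 10.37, 10.38, 10.21 and 10.51 in PTC and 9.83, 9.39, 10.06, 10.58 and 9.71 in ATC. Among recurrent tumours levels were 9.18 to 10.60 (median 9.72), against 11.07 to 11.66 (median 11.29) in normal pools, with no overlap. Its differences were -0.99, -1.45 and -1.56 (adjusted p = 0.00471, 2.3e-05 and 1.52e-06), and a dim second probe set gave 0.22 in PTC, where the mean of the probe sets was not called (-0.39, adjusted p = 0.072). Pdia6, an isomerase that also acts on the sensors, differed by -0.38 in PTC (adjusted p = 0.28) and fell in ATC (-1.07) and recurrent tumours (-0.98). Limma on PTC and normal arrays alone called Pdia6 lower in PTC (adjusted p = 0.0374). P4hb, the classical isomerase and a subunit of prolyl 4-hydroxylase, was not called: it differed by 0.18, -0.13 and 0.05 (adjusted p = 0.632, 0.62 and 0.822). Every PTC array lay above every pool for P4hb, by a small margin (12.85 at the lowest against 12.82). Pdia5 was not called either, at 0.52, -0.28 and -0.78, and its levels on recurrent arrays ran from 7.0 to 10.36. Limma on PTC and normal arrays alone called Pdia5 higher in PTC (adjusted p = 0.0208). On JK arrays alone Pdia5 was called lower in recurrent tumours (-0.80, adjusted p = 0.0358).

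Among the transcription factors of the unfolded protein response, Atf6 alone fell in all 3 tumour groups. This ER-membrane factor is cut in the Golgi to release its active part, which the arrays do not see. Its levels were 8.55, 8.40, 8.44 and 8.68 in PTC and 8.74, 8.78, 8.83, 8.77 and 8.86 in ATC. Recurrent arrays ran from 8.39 to 8.96 (median 8.67), against 8.98 to 9.38 (median 9.17) in normal pools. No tumour array overlapped the pools, and the differences were small: -0.67, -0.39 and -0.55 (adjusted p = 0.000338, 0.00676 and 9.91e-05). On JK arrays alone the ATC difference was -0.36 and not called (adjusted p = 0.15).

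Xbp1, whose message is spliced by the sensor Ire1 into the active form, had 13.09, 12.80, 12.65 and 12.58 in PTC and 11.93, 12.43, 12.23, 12.23 and 12.30 in ATC. In recurrent tumours the levels ran from 9.46 to 12.35 (median 11.98), against 12.51 to 13.01 (median 12.64) in normal pools. ATC and recurrent arrays lay below all pools, and PTC overlapped them. The differences were 0.11 (adjusted p = 0.921), -0.45 (adjusted p = 0.35) and -0.94 (adjusted p = 0.0196), and the arrays do not measure splicing. Recurrent array 3, at 9.46, stood far below the other recurrent arrays. Without it limma called the ATC difference too (adjusted p = 0.0371). The recurrent call ended when recurrent and normal arrays were fitted alone (adjusted p = 0.0691).

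Atf4, the factor translated when eIF2 is phosphorylated, rose in recurrent tumours. It had 10.97, 10.89, 11.12 and 11.11 in PTC and 11.64, 11.41, 11.15, 11.10 and 11.31 in ATC. The 9 recurrent arrays spanned 11.21 to 12.32 (median 11.48), against 10.76 to 11.30 (median 10.96) in normal pools, so the groups overlapped slightly. The differences were 0.01 (adjusted p = 0.986), 0.31 (adjusted p = 0.162) and 0.57 (adjusted p = 0.00436). The highest recurrent value was on the array labelled recurrent 2. The ATC difference was called with the kind of title as a block (0.55, adjusted p = 0.0279), with the mean of all probe sets (0.51, adjusted p = 0.00718) and with a spread for each group (adjusted p = 0.0436). A second probe set of Atf4 gave 0.80, 1.12 and 1.03 in PTC, ATC and recurrent tumours. Ddit3 (CHOP), a target of Atf4, was not called in any group, at -0.37, -0.58 and 0.23. Its levels were 8.25 to 8.56 in PTC, 7.57 to 8.78 in ATC and 7.59 to 11.87 in recurrent tumours, against 8.37 to 9.28 in normal pools, with recurrent arrays 7 (11.87), 2 (10.26) and 3 (9.51) above every pool.

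**Figure D3:**
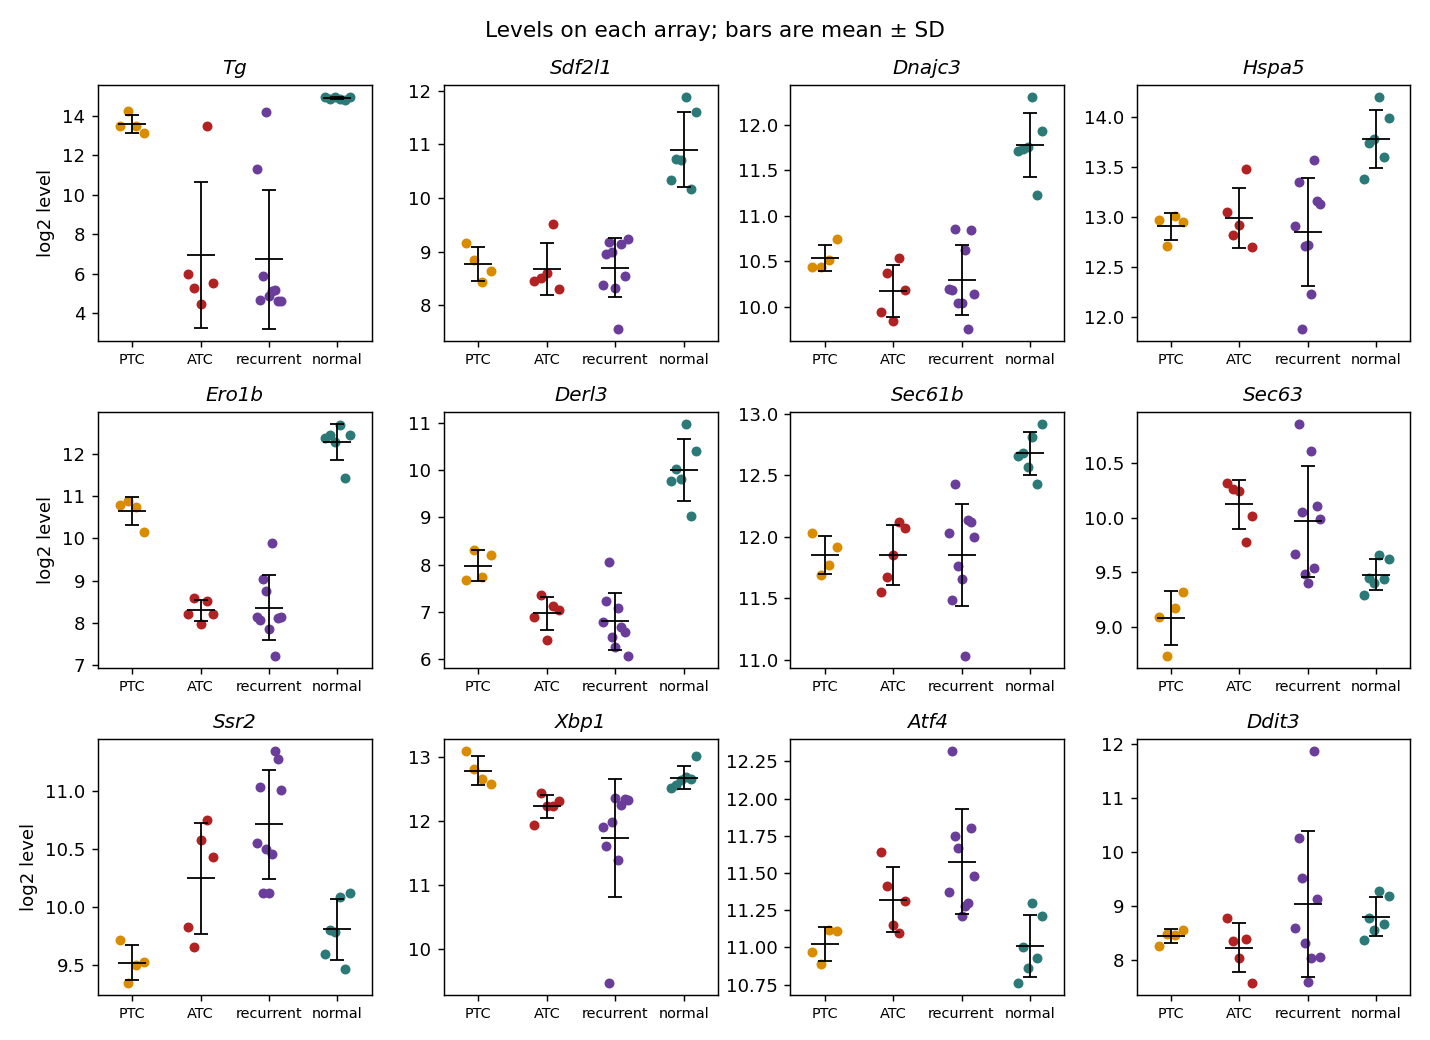
Levels (log2) of Tg and 11 ER genes on each array of PTC, ATC, recurrent tumours and normal pools; points are arrays and bars are mean ± SD. Sdf2l1, Dnajc3 and Derl3 separate every tumour array from the pools, Ero1b has PTC between normal and the other tumours, Sec63 is lowest in PTC, and Ddit3 and Xbp1 are scattered among recurrent arrays.

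Translocon and signal peptidase genes did not move together: of 9 measured, 2 fell in PTC, 3 fell and 1 rose in ATC, and 3 fell and 2 rose in recurrent tumours. Their median differences were -0.40, 0.05 and -0.16. Sec61b, a small subunit of the channel, had 12.03, 11.69, 11.77 and 11.92 in PTC and 11.55, 11.67, 11.85, 12.12 and 12.07 in ATC. Among recurrent tumours levels were 11.03 to 12.43 (median 12.00), against 12.43 to 12.92 (median 12.67) in normal pools. Recurrent array 3 just reached the lowest pool and no other tumour array did. The differences were close to each other, at -0.83 in each tumour group (adjusted p = 0.00666, 0.00158 and 0.000445). The channel subunit Sec61a1 was not called, at -0.06, 0.17 and -0.16.

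Sec63, a membrane protein that brings BiP to the channel, differed between the tumour types. It had 9.09, 8.73, 9.17 and 9.32 in PTC and 10.32, 10.26, 10.24, 9.78 and 10.01 in ATC. Recurrent arrays ran from 9.40 to 10.86 (median 9.99), against 9.29 to 9.66 (median 9.45) in normal pools. All ATC arrays lay above all pools, and PTC overlapped the lowest pool. The differences were -0.40 in PTC (adjusted p = 0.29), 0.64 in ATC (adjusted p = 0.0237) and 0.49 in recurrent tumours (adjusted p = 0.0475). The ATC call was lost without ATC array 1, 2 or 3, and the recurrent call in 18 of 24 fits that left out 1 array. Of its other probe sets, 2 gave 0.71 and 0.63 in ATC and 1 gave -0.13. In the same order they gave 0.58, 0.85 and -0.25 in recurrent tumours and -0.74, -0.61 and -0.57 in PTC. With the mean of the probe sets the ATC call ended (adjusted p = 0.052), and Sec63 was called lower in PTC. Limma on PTC and normal arrays alone also called it lower in PTC (adjusted p = 0.0172).

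The subunits of the TRAP complex, which sits beside the channel, went different ways. Ssr2 had 9.71, 9.34, 9.50 and 9.52 in PTC and 9.83, 9.65, 10.58, 10.75 and 10.43 in ATC. In recurrent tumours the levels ran from 10.12 to 11.35 (median 10.55), against 9.46 to 10.12 (median 9.79) in normal pools. Recurrent arrays began where the pools ended, with a difference of 0.91 (adjusted p = 0.0015), against 0.45 in ATC (adjusted p = 0.153) and -0.29 in PTC (adjusted p = 0.543). With the kind of title as a block the recurrent call ended (0.60, adjusted p = 0.0838). Ssr4 fell in PTC, ATC and recurrent tumours (-0.98, -0.48 and -0.57), while a second probe set gave 0.17 in PTC. The PTC call of Ssr4 ended with the mean of its probe sets (-0.28, adjusted p = 0.0712), and the ATC call in 5 of 24 fits that left out 1 array (adjusted p up to 0.0865). Ssr1 and Ssr3 were not called against normal, and Ssr3 differed by -0.69 in PTC (adjusted p = 0.073), where every PTC array lay below every pool. The signal peptidase subunit Spcs2 differed by -0.61 in PTC (adjusted p = 0.0561) and fell in ATC (-0.69) and recurrent tumours (-0.49), and Spcs3 was not called. With the mean of its probe sets Spcs2 was called in PTC (-0.96, adjusted p = 0.013) and not in ATC (-0.58, adjusted p = 0.0607) or recurrent tumours (-0.27, adjusted p = 0.346).

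Of 7 genes of ER-associated degradation, which returns misfolded proteins to the cytosol, 3 fell in PTC, 2 in ATC and 2 in recurrent tumours, and none rose. Derl3, a derlin of the retrotranslocation channel, had 7.67, 8.31, 7.75 and 8.20 in PTC and 6.89, 7.37, 6.42, 7.13 and 7.04 in ATC. The 9 recurrent arrays spanned 6.07 to 8.05 (median 6.69), against 9.02 to 10.98 (median 9.93) in normal pools. Tumours lay far from the pools, and ATC lay below PTC without overlap. The differences were -2.02 (SE 0.34, adjusted p = 0.000256), -3.03 (SE 0.31, adjusted p = 2.65e-07) and -3.20 (SE 0.27, adjusted p = 1.23e-08).

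The other derlins moved less. Derl2 fell by 0.65 in PTC (adjusted p = 0.0157, or 0.0682 without PTC array 2) and differed by -0.36 in ATC (adjusted p = 0.101) and -0.32 in recurrent tumours (adjusted p = 0.0931), and Derl1 was not called. The other probe sets of Derl1 gave -0.57, -0.54 and -0.67 in PTC, against -0.17 for the brightest. With the mean of its probe sets limma called Derl1 lower in PTC (-0.49, adjusted p = 0.0232). Herpud1, which gathers the degradation complex, had 10.43, 10.24, 10.52 and 10.55 in PTC and 8.88, 9.89, 9.77, 9.79 and 9.37 in ATC. Among recurrent tumours levels were 9.15 to 10.91 (median 10.01), against 10.41 to 11.81 (median 11.08) in normal pools. ATC lay below all pools, and its difference was -1.53 (adjusted p = 0.000204), beside -1.07 in recurrent tumours (adjusted p = 0.00162) and -0.63 in PTC (adjusted p = 0.176). Edem1, a lectin that hands glycoproteins to degradation, fell by 0.71 in PTC (adjusted p = 0.0308), a call lost in 7 of 24 fits that left out 1 array (adjusted p up to 0.101) and with renewed quantile normalization (adjusted p = 0.0607). The ubiquitin ligase Syvn1 (Hrd1) and its partner Sel1l were not called in any group, with differences between -0.35 and 0.19. Every PTC array lay below every pool for Sel1l, and limma on PTC and normal arrays alone called it lower (adjusted p = 0.0192).

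KDEL receptors return escaped ER proteins from the Golgi, and only Kdelr1 was called. It had 11.87, 11.93, 11.85 and 12.13 in PTC and 11.77, 11.93, 11.70, 11.73 and 11.59 in ATC. Recurrent arrays ran from 11.12 to 12.03 (median 11.37), against 11.36 to 11.54 (median 11.50) in normal pools. PTC and ATC lay above all pools by small margins: 0.46 in PTC (adjusted p = 0.0216) and 0.26 in ATC (adjusted p = 0.112), beside -0.05 in recurrent tumours. The PTC call ended without PTC array 2 or 4 (adjusted p = 0.052 and 0.0902). Kdelr2 was not called, at -0.17, -0.09 and 0.14. A second probe set of Kdelr2 gave -0.22, 0.70 and 1.03. With the mean of its probe sets limma called Kdelr2 higher in recurrent tumours (0.59, adjusted p = 0.0169). Kdelr3 was not called, at -0.52, 0.72 and 0.43, and its levels on recurrent arrays spread from 6.93 to 11.51.

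Over the 3 comparisons with normal, 16 members fell in each: Hspa5, Calr, Canx, Sdf2l1, Dnajb9, Dnajb11, Dnajc3, Creld2, Manf, Pdia3, Pdia4, Ero1b, Atf6, Sec61b, Ssr4 and Derl3. Of these 16, 9 kept the call in all 3 comparisons under every alternative and every fit that left out 1 array: Sdf2l1, Dnajb9, Dnajc3, Creld2, Manf, Pdia3, Ero1b, Sec61b and Derl3. A further 5, Hsp90b1, Hyou1, Pdia6, Spcs2 and Herpud1, fell in ATC and recurrent tumours and were not called in PTC. Hsp90b1, Pdia6, Spcs2 and Herpud1 were called lower in PTC under some other settings, and Hyou1 under none. Edem1 and Derl2 fell in PTC and were not called in the others, and Xbp1 fell in recurrent tumours. Atf4, Sec63, Ssr2 and Kdelr1 rose in at least 1 group, and 12 members were called in none. Some of the 12 were called under other settings, among them Kdelr2 and Derl1 with the mean of their probe sets. Leaving out each array in turn kept 14 of the 19 PTC calls, 19 of the 22 ATC calls and 21 of the 25 recurrent calls in every fit.

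Between ATC and PTC, Tg differed by -6.63 (adjusted p = 0.0112). Limma called 2 of 40 higher and 5 lower in ATC, beside 7.81% of all genes higher and 9.35% lower. The 7 are 17.5% of members, near the 17.2% of all genes called. The member median was -0.01 and that of all genes -0.06. Every ATC array lay above every PTC array for 8 members and below for 7, against 15% and 17.5% of all genes. Ero1b was lower in ATC, at -2.34 (95% interval -3.09 to -1.58, adjusted p = 0.000103). Also lower were Hyou1 at -1.12 (adjusted p = 0.0135), Derl3 at -1.01 (adjusted p = 0.0478), Herpud1 at -0.89 (adjusted p = 0.0492) and Pdia6 at -0.69 (adjusted p = 0.038). Sec63 was higher by 1.04 (adjusted p = 0.00397) and Ssr3 by 0.92 (adjusted p = 0.0171). Calls of Ero1b, Hyou1 and Sec63 held in every fit that left out 1 array. Hyou1 was not called on JK arrays alone (-0.74, adjusted p = 0.141), with the kind of title as a block (-0.61, adjusted p = 0.108) or with the mean of its probe sets (-0.52, adjusted p = 0.177). For Hspa5 the ATC minus PTC difference was 0.09 with a 95% interval of -0.46 to 0.63, and for Sdf2l1 -0.10 with -0.84 to 0.65.

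The count of 7 differed between fits, and so did the count over all genes. With only PTC and ATC arrays fitted, 16 members (40.0%) and 37.0% of all genes were called, and with a spread for each group 19 (47.5%) and 42.5%. With the kind of title as a block, which also changed the estimates, 3 members (7.5%) and 15.7% of all genes were called. The Derl3 difference was then -0.64 (adjusted p = 0.247).

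Between recurrent tumours and ATC no member was called, beside 1.19% of all genes higher and 3.12% lower. In the limma fit 2 of 40 members had an unadjusted p under 0.05, against 17.8% of all genes. The lowest adjusted p was 0.132, for Kdelr1 at -0.31. No member separated the groups, against 0.202% of all genes wholly above and 0.686% wholly below. Ero1b differed by 0.06, Derl3 by -0.17 and Sdf2l1 by 0.02, all between tumour groups that differed by -0.23 in Tg (adjusted p = 0.957) and by -4.57 in Braf (adjusted p = 7.28e-05).

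Arrays of a group that kept Tg gave a second view of the question, since a slope on the Tg level with the 4 group means in the model takes out the differences between groups. No member was called as following Tg within groups: limma called 0 of 40, and 0.0403% of all genes rose and 0% fell with it. Of 40 members, 2 had an unadjusted p under 0.05, against 6.3% of all genes, and the lowest adjusted p was 0.765. The member slopes lay between -0.06 and 0.08 per log2 unit of Tg. Their 95% intervals ran from -0.04 to 0.14 for Sdf2l1, -0.06 to 0.13 for Ero1b and -0.06 to 0.08 for Hspa5. Tg itself differed from normal by -7.94 in ATC and -8.17 in recurrent tumours, and few of those arrays kept it. A lack of calls therefore does not show slopes of 0. The slopes were above 0 for 28 of 40 members and for 11 of 11 chaperones (median 0.02), against 5318 of 12393 genes. All members were read on the same few arrays, so these signs are not independent and decide nothing. They include slopes as small as that of Dnajc3, at 0.002 (SE 0.027). The 5 genes called were Iyd (0.53), Dio1 (0.43), Scg5 (0.42), Slc4a5 (0.25) and Pax8 (0.19), of which Iyd, Dio1 and Pax8 are thyroid genes. Recurrent array 4 and ATC array 4 lay farthest from the median Tg of their group, by 9.07 and 7.97.

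These arrays were not alike in the module. On ATC array 4 the chaperone median was -0.68 relative to the normal mean, against -1.50 to -1.06 on the other 4 ATC arrays, and Hspa5, Sdf2l1, Manf and Creld2 were at the top of the ATC range. On recurrent array 4 it was -1.08, inside the recurrent range of -1.37 to -0.77. Recurrent array 4 also had a parathyroid marker median of 0.35 relative to the normal mean, where the recurrent median was -7.92. That value was -8.16 on ATC array 4, -7.45 on recurrent array 1, and -0.10 on recurrent array 5, where Tg was 4.84. A part of normal neighbouring tissue in the Tg signal was not tested. The 4 PTC arrays, with Tg between 13.11 and 14.24, had chaperone medians of -1.26 to -0.83. Tg levels near those of PTC stood beside chaperone medians from -1.26 to -0.68. The translocon medians ran from -0.75 to -0.28 in PTC, -0.21 to 0.11 in ATC and -0.78 to 0.47 in recurrent tumours, against -0.26 to 0.28 in normal pools. PTC arrays lay below every pool in this role, ATC arrays inside the range of the pools, and recurrent arrays on both sides of it.

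**Figure D4:**
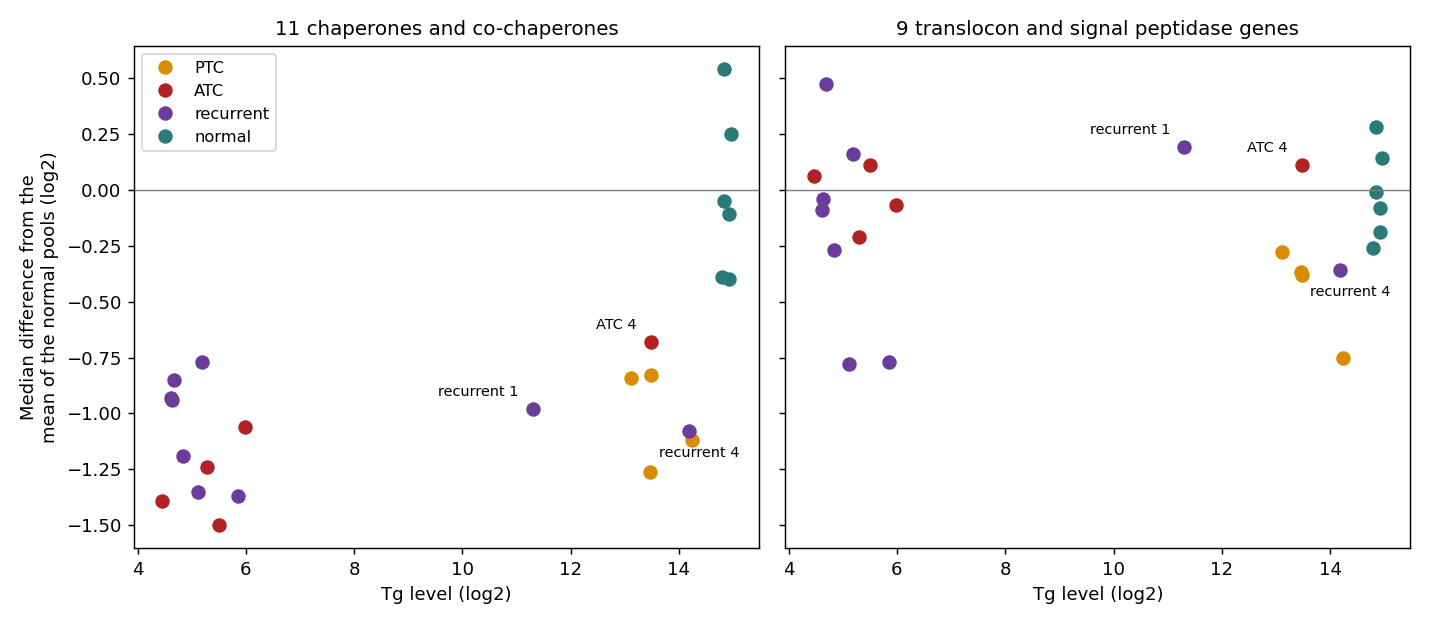
Tg level (log2, horizontal axis) on each array against the median difference from the normal mean (log2, vertical axis) of 11 chaperones (left) and 9 translocon and signal peptidase genes (right). On the left all tumour arrays sit under the normal pools. Those with Tg above 13 are the 4 PTC arrays, ATC array 4 (-0.68) and recurrent array 4 (-1.08). Tg level and tumour group therefore cannot be fully told apart. On the right the 4 PTC arrays lie below every pool, at -0.75 to -0.28, and ATC and recurrent arrays overlap the pools.

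Members with the stress response element printed above were read beside the others. Of the 10 genes that carry it, 7 fell in PTC, 9 in ATC and 9 in recurrent tumours, with medians of -0.91, -0.96 and -0.96. Syvn1 was the member not called in any of them. Of the 22 measured members whose promoter lacks these letters, 9, 9 and 10 fell and 1, 1 and 2 rose, with medians of -0.62, -0.40 and -0.37. The 22 include Herpud1 and Dnajb11, which carry the related element. Of the 20 with neither element, 8, 7 and 8 fell. Over all genes 8.03%, 19.1% and 19.3% were lower. Sdf2l1, with large falls, was among the 22, and Manf and Hyou1 had no promoter in the table. Among 8 measured genes outside the module with the element, Acacb and Alg12 fell in each comparison with normal and the others were not called. That share is near the one over all genes in ATC and recurrent tumours. A part of the element in the falls was not tested.

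Other genes of the pathway were read from 6 lists chosen by function, beside 8.03%, 19.1% and 19.3% of all genes lower and 6.16%, 15.1% and 14.5% higher in PTC, ATC and recurrent tumours. Of vesicle coat genes 12.5%, 12.5% and 16.7% fell, and of other degradation genes 14.3%, 7.1% and 14.3%, both under the share of all genes in ATC and recurrent tumours. Of glycan genes 21.1%, 36.8% and 36.8% fell. In stress sensing and the integrated stress response, 4 of 20 measured genes rose and 2 fell in PTC, 5 rose and 3 fell in ATC, and 5 rose and 4 fell in recurrent tumours. Trib3, a pseudokinase induced by Atf4, rose by 2.29 in PTC and was lower in ATC than in PTC (-2.44). Nupr1, a stress-induced nuclear protein, rose by 1.86 in PTC, 1.49 in ATC and 0.996 in recurrent tumours, and Chac1, another Atf4 target, by 1.94 in recurrent tumours. Eif2ak3 (PERK), the sensor upstream of Atf4, fell in PTC (-0.86) and recurrent tumours (-0.69). Asns, asparagine synthetase, fell in PTC (-1.11) and ATC (-0.67), and was higher in recurrent tumours than in ATC by 1.16 (adjusted p = 0.00438).

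Of 19 genes of N-glycan transfer and trimming, 1 rose and 4 fell in PTC, 2 rose and 7 fell in ATC, and 3 rose and 7 fell in recurrent tumours. Dad1, a subunit of the oligosaccharyltransferase, fell in PTC (-0.84), ATC (-0.75) and recurrent tumours (-1.02), and its catalytic partner Stt3b fell in ATC (-1.06) and recurrent tumours (-0.77). Of 15 further targeting genes, 2, 6 and 4 fell in PTC, ATC and recurrent tumours, and 0, 1 and 0 rose. Sec11c, a catalytic subunit of signal peptidase, had levels of 11.15 to 11.68 in PTC, 10.50 to 11.44 in ATC and 9.90 to 11.59 in recurrent tumours, against 12.80 to 13.16 in normal pools. No tumour array overlapped the pools, and the differences were -1.61, -1.88 and -1.97.

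Of 20 other foldases and collagen chaperones, 3, 7 and 5 fell and 2, 2 and 3 rose in PTC, ATC and recurrent tumours. Fkbp2, an ER prolyl isomerase, fell in each group (-1.57, -1.702 and -1.59). Serpinh1 (Hsp47), the collagen chaperone, rose by 1.61, 2.04 and 1.97, beside the fibroblast markers above. Of 14 other degradation genes, 2, 1 and 2 fell and 0, 1 and 2 rose. Of 24 genes of vesicle coats and cargo receptors, 3, 3 and 4 fell and 0, 1 and 2 rose, with Tmed3, a cargo receptor subunit, at -0.66, -0.71 and -0.98.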

How the data were processed

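Thyroid RNA from mice, 24 samples in all, was measured on Affymetrix Mouse430A_2 arrays. Each deposited value is a log2 intensity, for 22690 probe sets, from the RMA step the authors ran in Partek, per the submitters' processing notes. For neither is a version given in the sources used here. RMA brings arrays towards a common distribution, so a shift of all genes one way would not be seen.

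Names came from the annotation of the platform: 20393 had 1 gene symbol, 691 several and 1606 none, and only the first kind was used. Symbols were updated with RefSeq (GRCm38.p6), where 20364 matched. Where a gene had several probe sets, the brightest on average stood for it, which gave 12394 genes. Limma 3.58.1 (R 4.3.3, with version 1.17.8 of data.table) fitted 4 group means over all arrays, with Benjamini-Hochberg adjustment over all genes, called under 0.05. The Tg slope used the same model with Tg as a covariate over 12393 genes. The Tg exact test used SciPy 1.17.1, and pandas 2.3.3, Python 3.11.15 and matplotlib 3.10.9 made the summaries and figures. The 95% intervals use limma's SE. Simulated data with known changes were used to test the fit.

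Every measured member is accounted for. The rule for names took 8 called members each way, by size of difference, 13 members whether called or not, Tg, Braf, and up to 3 called genes from every other list, in its prevailing direction. Eif2ak3, Asns and Serpinh1 were named after their values were seen. The members and lists were chosen with earlier results of these data known. Numbers within a group only name arrays and do not pair them. None of 276 array pairs held identical values. Alternatives were fits of 2 groups alone, a spread for each group, kind of title as a block, JK arrays alone, probe set means, a filter on dim genes, quantile normalization, centring, another prior and leaving out each array.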

Additional observations from a re-analysis of the deposited data

Results flagged for a closer look

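Within-group gaps were examined for the 40 members, Tg and Braf, and chance flags about 1 group in 20. In 14 of 168 cases the highest or lowest array lay apart from the rest of its group by more than Dixon's 95% critical value. ATC array 4, which also kept Tg at 13.48 while the other ATC arrays lay at 4.46 to 5.98, held 3 of them among members: Sdf2l1 at 9.52, Manf at 11.53 and Kdelr3 at 10.82, each above the rest of ATC. P4hb was low on ATC array 5 at 12.32, and Hyou1 was low on PTC array 4 at 10.09.

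Among recurrent tumours, Xbp1 was low on array 3 at 9.46, where the others lay at 11.39 to 12.35. Sel1l at 9.87 and Kdelr1 at 12.03 were high on array 7, Derl1 was high on array 8 at 12.22, and Kdelr3 was low on array 6 at 6.93. Braf was high on the array labelled recurrent 2 at 11.14. Among normal pools, Ero1b was low on pool 5 at 11.43 and Xbp1 was high on pool 6 at 13.01.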

How the results depend on the processing

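No paired analysis was possible because array numbers within a group are names given in record order. Members called numbered 18 to 27 in PTC, 19 to 26 in ATC and 20 to 25 in recurrent tumours over the other settings against normal, and 15 to 21, 19 to 23 and 22 to 26 when 1 array was left out. For ATC against PTC the 7 calls became 16 when only these groups were fitted, 19 with a spread for each group and 3 with the kind of title as a block, and 3 to 10 when 1 array was left out; the cause was not tested. For recurrent against ATC leaving out 1 array gave 0 to 1, the 1 being Kdelr1 without recurrent array 7 (-0.39, adjusted p = 0.0152). For the Tg slope it gave 0 in every fit. No member changed direction while called. Over the 40 members, all 6 tests and all other settings, 7800 of 8040 values kept their side of the threshold, 142 lost a call and 98 gained one. Over all genes, 1758 were called in PTC against normal, but 5676 when the groups were fitted alone, 5897 with a spread for each group and 3156 on JK arrays, with 1182 to 2292 when 1 array was left out. For ATC against PTC 2127 were called, but 4587 when fitted alone, 5262 with a spread for each group and 1345 without PTC array 2. For recurrent against ATC 535 were called, but 99 when fitted alone, 286 to 844 when 1 array was left out, 933 on JK arrays and 877 without normal pool 5, ATC array 4 and recurrent array 2, a setting chosen after seeing the data, which left 19, 23, 22, 7 and 0 member calls in the 5 comparisons. For the Tg slope, 5 genes were called, and 0 on recurrent arrays alone, 2 on ATC and recurrent arrays and 9 with a spread for each group. A log2 level near the top of the scale, such as Tg in normal pools, may be compressed, and dim probe sets are the least reliable.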
